A study of Mus musculus with 33 samples.

Results

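The MHC class II antigen presentation genes on the nCounter immune panel were measured in bone marrow (BM) RNA of mice given a BCL2 inhibitor or a JAK1/2 inhibitor. They were chosen by name: the transactivator gene Ciita, the invariant chain gene Cd74, the classical chain genes H2-Aa, H2-Ab1 and H2-Eb1, the H2-M genes H2-DMa, H2-DMb1 and H2-DMb2, and the H2-O beta chain gene H2-Ob. All 9 had a probe among the 750 endogenous probes, and all 9 were among the 655 genes that passed the filter on low counts.

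RNA came from 33 female C57BL/6 wild type mice aged 6-8 weeks, 1 lane per mouse, in 13 groups. Venetoclax, which inhibits BCL2, was given by oral gavage once a day for 2 days. Ruxolitinib, which inhibits JAK1 and JAK2, was given by the same route 2 times a day for 2 days. Controls received the venetoclax vehicle (phosal, polyethylene glycol and ethanol) or the ruxolitinib vehicle (DMSO, polyethylene glycol and water), and BM was taken on day 1, 3 or 7 after treatment. Each drug group held 3 mice and each vehicle group 2 mice per day, and 3 mice were untreated. Mice of 1 day and 1 untreated mouse were read in the same instrument run, so day and run cannot be told apart, whereas drug and vehicle of a day always shared a run. RNA was taken from whole marrow, with no sorting of cells.

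MHC class II molecules are alpha-beta pairs that carry peptides from endocytosed proteins to the surface of B cells, dendritic cells and macrophages, where CD4 T cells read them. The invariant chain Cd74 fills the groove until it is degraded, H2-M then exchanges its last fragment for peptide, and H2-O restrains H2-M, mainly in B cells. Ciita does not bind DNA itself: it is recruited to factors sitting on paired X and Y boxes of class II promoters, and it switches on the chains, Cd74 and H2-M together.

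The X and Y boxes are shown first because they are the sequence that most of these genes share. RefSeq promoter windows of GRCm38.p6, from 250 bases before to 50 after an annotated start, were found for 6 of the 9 genes; Ciita, Cd74 and H2-Ab1 had no entry. The letter strings searched on both strands were GATTGG (the core of the Y box, CCAAT on the other strand), AACNGATG (X box) and AAC followed after 24 to 27 bases by GATTGG. The spacing was set after these windows were seen. In the lines below each window runs 5′ to 3′ on the gene's own strand, and capitals mark AAC and GATTGG of the spaced pair.
H2-Aa: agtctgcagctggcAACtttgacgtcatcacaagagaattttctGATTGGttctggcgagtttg
H2-Eb1: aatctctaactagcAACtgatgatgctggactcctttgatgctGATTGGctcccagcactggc
H2-DMb1: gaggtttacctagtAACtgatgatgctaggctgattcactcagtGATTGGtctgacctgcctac
H2-DMb2: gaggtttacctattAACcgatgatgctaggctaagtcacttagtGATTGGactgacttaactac
H2-Ob: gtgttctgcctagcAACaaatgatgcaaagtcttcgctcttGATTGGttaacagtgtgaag

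The windows lie at chr17:34287853-34287916 on the minus strand for H2-Aa, and on the plus strand at chr17:34305764-34305826 for H2-Eb1, chr17:34153085-34153148 for H2-DMb1, chr17:34145114-34145177 for H2-DMb2 and chr17:34238806-34238866 for H2-Ob. All 5 end upstream of the annotated start. GATTGG began 49 bases before the start in H2-Aa, 60 in H2-Eb1, 62 in H2-DMb1, 91 in H2-DMb2 and 58 in H2-Ob. The longer X box string was found in H2-Eb1, H2-DMb1 and H2-DMb2, in each case over the AAC of the pair, and H2-Eb1 held a second GATTGG on the opposite strand, 35 bases before the start. Of all 32851 promoter windows of the same length, 16.1% held GATTGG, 2.32% held AACNGATG and 0.913% held the spaced pair.

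H2-DMa, the alpha chain gene of H2-M, had 2 annotated starts and no spaced pair at either, and 1 GATTGG lay 199 bases before the second. H2-DMb1 and H2-DMb2 encode alternative beta chains of H2-M, and their printed windows were identical at 55 of 64 bases. The other pairs of windows had 23.8% to 39.3% identity. Windows were compared without gaps, lined up at their 3′ ends. Where the spacing differed, AAC was out of register, so those figures do not measure how alike the windows are. H2-DMb1 and H2-DMb2 are close paralogues, so how far a probe for 1 reads the other is not known from these data. A string match is a description and shows no binding.

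**Figure D1:**
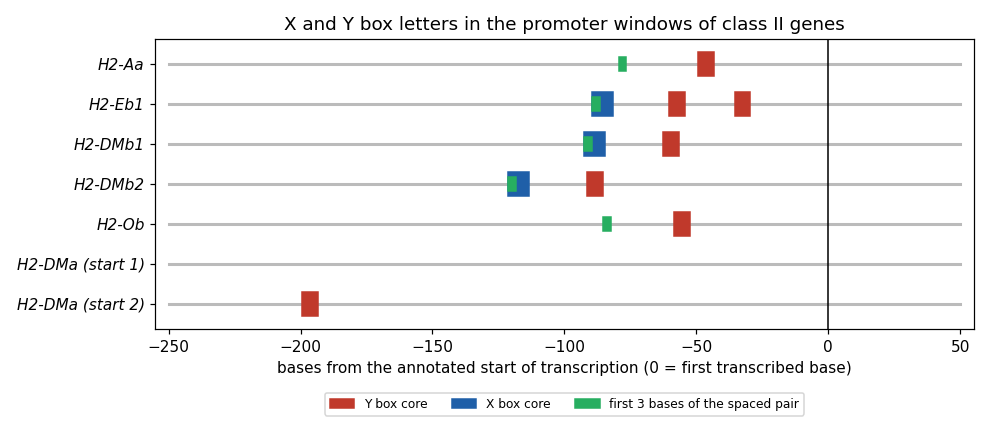
Positions of the letter strings in the 300-base promoter windows of 6 class II genes, in bases from the annotated start (horizontal axis), with both annotated starts of H2-DMa as separate lines. Both strings of the spaced pair begin between 49 and 121 bases upstream in 5 genes, and the pair is missing from both H2-DMa windows.

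Counts were scaled to housekeeping probes and are given as normalised counts, which compare mice for 1 gene and not 1 gene with another. Total endogenous counts ran from 18056 to 466096 per lane (median 158944), and between 33.6% and 79.9% of the probes were above background. The lanes of venetoclax day 1 replicate 1 (18056) and ruxolitinib day 3 replicate 1 (26881) were under 30000. Cd74, H2-Aa, H2-Ab1, H2-Eb1, H2-DMa and H2-Ob were above background in all 33 lanes, H2-DMb1 and H2-DMb2 in 31, and Ciita in 23, with a median raw count of 14 for Ciita. In whole marrow, fewer class II-expressing cells and less RNA per cell cannot be told apart.

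Across the 13 groups, venetoclax day 1 had the lowest mean of 7 genes and ruxolitinib day 1 the highest mean of 5. H2-DMb2 ran from 10.8 ± 0.286 (SD, n = 3) after venetoclax on day 1, where 2 of the 3 lanes read it above background, to 82.2 ± 10.1 (SD, n = 3) after ruxolitinib on day 1. H2-Aa spanned 8.63-fold, from 81.9 ± 18.7 (SD, n = 3) on day 1 of venetoclax to 707 ± 152 (SD, n = 2) in the venetoclax vehicle mice of day 7. Ciita ran from 4.42 ± 1.99 (SD, n = 3) after venetoclax on day 1 to 24.1 ± 5.42 (SD, n = 3) after ruxolitinib on day 1. Of the 3 lanes of its lower group, 1 read Ciita above background. No fold is given for H2-DMb2 or Ciita, since not all lanes of their lowest group read them above background. H2-DMa spanned 1.95-fold and its lowest mean was in the venetoclax vehicle mice of day 1.

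Neighbours in these orders mostly overlapped. For Ciita, H2-Ab1, H2-DMa and H2-Ob, the mice of all 12 pairs of neighbouring groups overlapped in range, and for H2-DMb2, with the clearest steps, those of 9 pairs did. The 3 lowest groups for H2-DMb2 were venetoclax on day 1, day 3 (19.1 ± 2.23, SD, n = 3) and day 7 (31.6 ± 1.89, SD, n = 3), in that order. Untreated mice ranged widely, from 12.8 to 64.0 for H2-DMb2 and from 221 to 924 for Cd74, with the low value of both from the untreated mouse of the day 1 run, whose lane held 47977 counts and read H2-DMb2 below background.

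**Figure D2:**
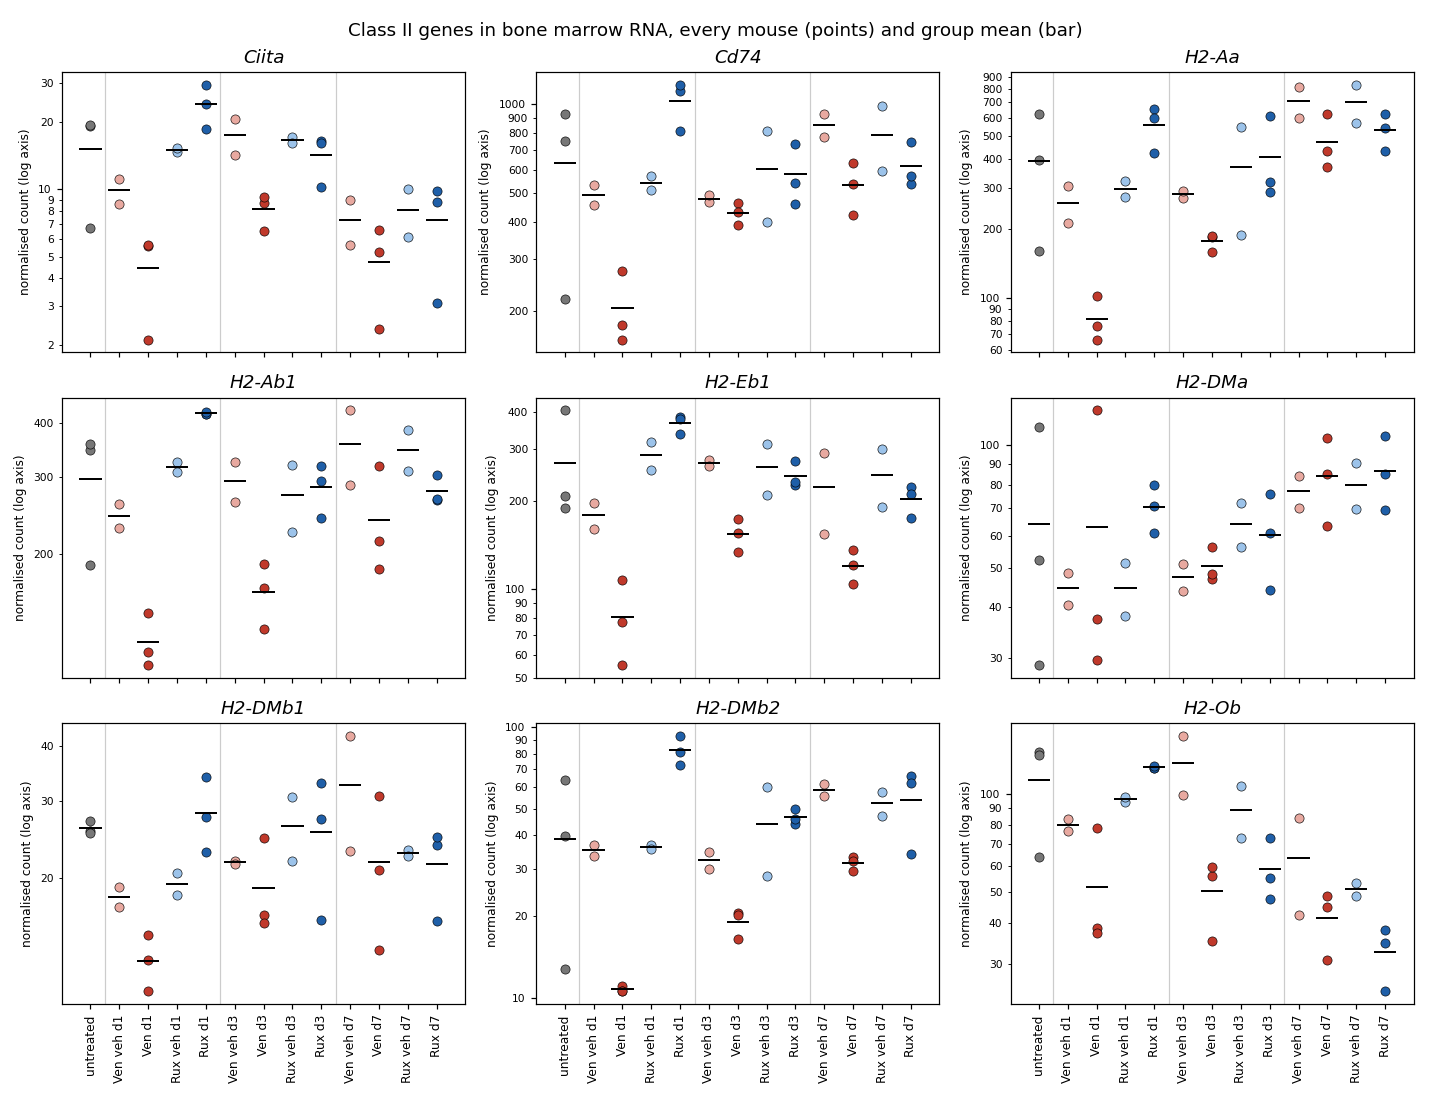
Normalised count (log axis) of each class II gene in every mouse (points), with the group mean as a bar, for untreated mice and for venetoclax (Ven), ruxolitinib (Rux) and their vehicles (veh) on days 1, 3 and 7 (d1, d3, d7). Venetoclax day 1 has the lowest mean in 7 of 9 panels, the others being H2-DMa, lowest in the venetoclax vehicle mice of day 1, and H2-Ob, lowest after ruxolitinib on day 7.

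The question for each drug was how it changed immune gene expression in the marrow against its own vehicle. Over the 3 days as a whole, class II transcripts were lower after venetoclax: 6 of the 9 genes fell in the edgeR test of the mean over days, adjusted over 655 genes. They were H2-DMb2, H2-Aa, H2-Eb1, Ciita, H2-Ob and H2-Ab1. Over all genes tested, 19 fell and none rose, so 2.9% were called in that direction. The median log2 fold change was -0.83 over the 9 genes and 0.04 over all 655. The genes Cd74, H2-Aa, H2-Ab1, H2-Eb1, H2-DMb2 and H2-Ob had been singled out by the study on these same mice, so their count is not independent evidence of the direction; of the others, Ciita fell and H2-DMa and H2-DMb1 did not pass the test.

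Ciita, which controls the transcription of the others, had normalised counts of 5.55, 5.61 and 2.12 after venetoclax on day 1, against 8.63 and 11.2 after vehicle. On day 3 they were 8.71, 9.27 and 6.48 against 20.8 and 14.2. On day 7 they were 5.21, 2.37 and 6.56 against 8.99 and 5.62. All drug-treated mice lay below both vehicle mice on day 1 and day 3, and the groups overlapped on day 7. These are small numbers: the raw count was 1 in venetoclax replicates 1 and 3 of day 1 and in replicate 2 of day 7. Averaged over days the log2 fold change reached -0.88 (standard error 0.25, adjusted p = 0.0464). The call for Ciita was fragile, since it passed in 2 of 11 alternative analyses with another scaling, test, filter or set of lanes (adjusted p from 0.00138 to 0.416) and in 2 of the 15 fits that each left out 1 mouse (0.0345 to 0.757). Its value was -1.52 with limma after background subtraction (0.416) and -1.03 to -0.78 in the other 10 alternatives.

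Cd74, the invariant chain, had values of 161, 273 and 180 after venetoclax on day 1 against 533 and 456 after vehicle. Day 3 gave 463, 434 and 392.4 against 468 and 492. Day 7 gave 634, 424 and 539 against 776 and 924. The groups did not overlap on any day, although the gap on day 3 was small. The mean log2 fold change of Cd74 was -0.68 (standard error 0.20, adjusted p = 0.0556), just outside the threshold. It passed in 3 of 12 alternatives (0.00235 to 0.139) and without venetoclax day 1 replicate 2 (0.0456).

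H2-Aa encodes the alpha chain of I-A, the class II molecule that C57BL/6 mice display. Its values were 66.6, 103 and 76.4 after venetoclax on day 1 against 305 and 210 after vehicle. On day 3 they were 159, 184 and 186 against 271 and 291. On day 7 they were 620, 368 and 432 against 599 and 815. The groups were apart on days 1 and 3 and overlapped on day 7, when H2-Aa was high in both. For H2-Aa the mean over days came to -0.94 log2 units (standard error 0.22, adjusted p = 0.0122), and it was called in all 12 alternatives. Without venetoclax vehicle day 1 replicate 1 the adjusted p of H2-Aa was 0.0665.

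H2-Ab1 encodes the beta chain that pairs with H2-Aa. On day 1 its values were 111, 146 and 119 after venetoclax against 260 and 229. On day 3 they were 167, 189 and 135 against 325 and 263. Drug and vehicle mice were apart on both days. On day 7 the values were 318, 185 and 214 against 288 and 427, which overlap. Over days the average difference was -0.78 log2 units (standard error 0.15, adjusted p = 0.00163), and the call held in all 12 alternatives and in all 15 fits without 1 mouse.

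H2-Eb1 encodes the beta chain of I-E, a second class II molecule whose alpha chain gene is a pseudogene in C57BL/6 mice; the H2-Ea-ps probe was above background in 1 of 33 lanes. H2-Eb1 values were 77.6, 108 and 55.2 after venetoclax on day 1 against 196 and 160. Day 3 gave 155, 173 and 134 against 276 and 262. Day 7 gave 136, 104 and 121 against 154 and 289. The groups were apart on each day, by the least on day 7. The mean log2 fold change of H2-Eb1 was -0.90 (standard error 0.17, adjusted p = 0.00163), called in all 12 alternatives and all 15 fits without 1 mouse.

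Of the H2-M genes, H2-DMb2 passed the test and H2-DMb1 and H2-DMa did not; whether the 3 genes differed in their response was not tested. H2-DMb2 values were 11.1, 10.6 and 10.6 after venetoclax on day 1 against 36.7 and 33.5 after vehicle. The 3 close values rested on raw counts of 2, 17 and 5, and replicate 1 read H2-DMb2 below background. On day 3 they were 16.5, 20.6 and 20.2 against 34.6 and 30.0. On day 7 they were 29.5, 33.2 and 32.2 against 55.9 and 61.8. The groups were apart on all 3 days, and both groups were higher on day 7 than on day 3. The mean log2 fold change of H2-DMb2 was -1.10 (standard error 0.21, adjusted p = 0.00163). It was called in 11 of 12 alternatives, the exception being limma after background subtraction (0.157), and in all 15 fits without 1 mouse.

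H2-DMb1 values were 11.1, 13.1 and 14.8 after venetoclax on day 1 against 17.3 and 19.1. Of these 3 venetoclax lanes 2 read H2-DMb1 above background, and the lowest raw count was 2. Day 3 gave 16.5, 24.7 and 15.8 against 21.9 and 21.6. Day 7 gave 20.8, 30.8 and 13.7 against 23.1 and 42.1. The groups were apart on day 1 and overlapped on day 3 and day 7. H2-DMb1 averaged -0.42 over days (standard error 0.20, adjusted p = 0.479), and -0.85 with limma after background subtraction (0.506).

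H2-DMa values were 122, 37.4 and 29.7 after venetoclax on day 1 against 48.6 and 40.6. The value of 122 came from the lane with 18056 counts and rested on 22 raw counts. On day 3 they were 47.0, 48.4 and 56.2 against 43.8 and 51.1, and on day 7 they were 85.1, 104 and 63.4 against 84.0 and 70.2. The groups overlapped on every day. H2-DMa averaged 0.09 over days (standard error 0.21, adjusted p = 0.959), and it was -0.08 without the 2 shallow lanes.

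H2-Ob, the beta chain of the H2-M inhibitor, had its lowest venetoclax values against vehicle on day 3, at 55.7, 59.7 and 35.3 against 150 and 98.7. On day 1 they were 38.8, 37.4 and 78.5 against 76.6 and 83.6. On day 7 they were 48.6, 45.1 and 30.9 against 42.6 and 84.3. Only the day 3 groups were apart. H2-Ob averaged -0.83 log2 units over days (standard error 0.19, adjusted p = 0.00884), called in all 12 alternatives. Without venetoclax vehicle day 3 replicate 1 its adjusted p was 0.0554.

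On single days no class II gene passed the test after venetoclax. Over all genes 0.153% were called on day 1, 0% on day 3 and 0.153% on day 7. Unadjusted p-values under 0.05 were reached by 6 of the 9 genes on day 1, 5 on day 3 and 3 on day 7, against 10.4%, 10.7% and 4.73% of all genes. On day 1 DESeq2 called 2 of the class II genes, among 4 of the 350 genes to which it gave an adjusted p, and limma called 4, among 11 of 655. Both called 0 class II genes on days 3 and 7. The smallest edgeR adjusted p was 0.0529 on day 1 (H2-DMb2), 0.0819 on day 3 (H2-Ob) and 0.730 on day 7. All venetoclax mice were below both vehicle mice for 7 of the 9 genes on day 1, 7 on day 3 and 3 on day 7, against 15.7%, 13.1% and 10.7% of all genes. This held on all 3 days for Cd74, H2-DMb2 and H2-Eb1, 3 of the 4 genes (0.611%) for which it held in the whole panel.

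An exact permutation test of the drug and vehicle labels within days, two-sided on the mean difference of log2(normalised count + 1), gave p = 0.002 for Cd74, H2-DMb2 and H2-Eb1. That is the smallest value its 1000 arrangements can give, and 6 of 655 genes reached it. In the same exact test Ciita, H2-Aa and H2-Ab1 had p = 0.004, H2-Ob 0.014, H2-DMb1 0.048 and H2-DMa 0.768. After adjustment over 655 genes the smallest value was 0.125, so this test called none of the 9 genes and none of all 655, although 8 of the 9 and 57 of all 655 had an unadjusted p under 0.05.

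**Figure D3:**
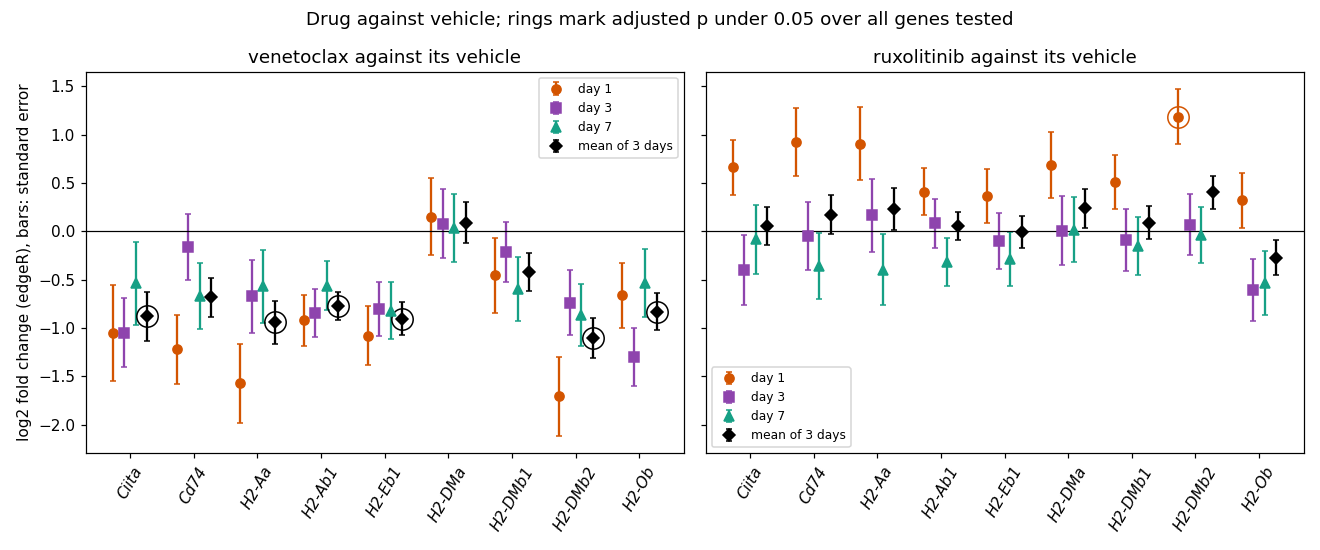
Log2 fold change of each class II gene against vehicle (points) with its standard error (bars), on days 1, 3 and 7 and as the mean of 3 days, for venetoclax (left) and ruxolitinib (right). Rings mark the 6 genes called over days after venetoclax and H2-DMb2 on day 1 of ruxolitinib.

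Ruxolitinib went the other way on day 1 and H2-DMb2 alone passed the test. Its values were 92.9, 80.9 and 72.8 after ruxolitinib against 36.6 and 35.6 after vehicle. The log2 fold change was 1.19 (standard error 0.29, adjusted p = 0.0103), with 0.763% of all genes called higher. The call for H2-DMb2 was lost without ruxolitinib vehicle day 1 replicate 1 (0.0884) or replicate 2 (0.320) or ruxolitinib day 1 replicate 1 (0.0568), and under limma without (0.231) or with background subtraction.

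The other 8 genes had fitted values from 0.32 (H2-Ob) to 0.92 (Cd74) on day 1, with adjusted p-values from 0.215 to 0.674. All 3 ruxolitinib mice were above both vehicle mice for all 9 genes, against 27.6% of all genes tested. The study had singled out Cd74, H2-Aa, H2-Ab1, H2-Eb1, H2-DMb2 and H2-Ob on these same mice. Neither this count nor the H2-DMb2 call is therefore independent evidence of the direction. Ciita values were 29.5, 18.7 and 24.1 against 14.7 and 15.4, 0.66 higher on the log2 scale (standard error 0.29, adjusted p = 0.312). H2-DMa values were 60.9, 79.8 and 71.1 against 51.3 and 38. H2-DMb1 values were 27.6, 33.9 and 22.97 against 18.3 and 20.5. In these 3 genes the lowest ruxolitinib mouse was above the higher vehicle mouse by a small margin.

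By day 3 and day 7 of ruxolitinib no class II gene was called, and the log2 fold changes ran from -0.61 to 0.17 and from -0.53 to 0.02. H2-Ob was at the low end on both days. Its values were 55.03, 47.5 and 73.1 against 105 and 73.0 on day 3, which overlap, and 38.1, 34.9 and 24.8 against 48.5 and 53.3 on day 7, which do not. H2-Ab1 was also below both vehicle mice on day 7, at 265, 304 and 267 against 384 and 309, as were 9.62% of all genes. Over the 3 days, none of the 9 genes was called after ruxolitinib, against 1.22% of all genes. Their median was 0.09, 1 gene had an unadjusted p under 0.05 (H2-DMb2, log2 fold change 0.41, standard error 0.17, adjusted p = 0.407), and 58 of 655 genes did. The fall of the ruxolitinib change against vehicle from day 1 to day 7 was not called for any of the 9 genes (1.53% of all genes). Day 1 minus day 7 lay between 0.66 and 1.31, and the smallest adjusted p was 0.162.

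The response to the drugs was compared directly as the venetoclax log2 fold change minus the ruxolitinib log2 fold change. On day 1 the difference was called for H2-DMb2, H2-Aa, Cd74 and H2-Ab1, all lower after venetoclax, with 1.22% of all genes called in that direction. The study had singled out these genes on the same mice as changing in opposite directions, so their calls are not independent evidence of a difference. H2-DMb2 differed by -2.89 (standard error 0.50), with values from -4.08 to -2.77 over 11 alternatives. It was called in 10 of these, the exception being limma after background subtraction (adjusted p = 0.287). H2-DMb2 kept its call in all 10 fits without 1 mouse. H2-Aa kept it in 7, being lost without venetoclax vehicle day 1 replicate 1 (0.110) or ruxolitinib vehicle day 1 replicate 1 (0.0665) or 2 (0.108). Cd74 kept it in 6, being lost without the same mice (0.103, 0.0815 and 0.0929) or venetoclax day 1 replicate 3 (0.0518), and H2-Ab1 in 0. For Ciita it was -1.71 (standard error 0.57, adjusted p = 0.122), for H2-DMb1 -0.97 (0.48, 0.366) and for H2-DMa -0.53 (0.52, 0.704), none of which passed. These 3 values were unsteady: limma after background subtraction gave -3.02 for Ciita and -2.17 for H2-DMb1, and H2-DMa ran from -1.05 to -0.18 without 1 mouse. Without the 2 shallow lanes 3 of the 9 genes were called, H2-Ab1 being lost (0.0931).

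Over the 3 days the difference was called for H2-DMb2 (-1.51, standard error 0.27, adjusted p = 0.00193) and H2-Ab1 (-0.83, standard error 0.21, adjusted p = 0.0471), against 0.458% of all genes called lower. Both had been singled out by the study on these same mice. H2-Aa (-1.17, adjusted p = 0.0692) and H2-Eb1 (-0.90, adjusted p = 0.0672) were just outside. H2-DMb2 was called in all 30 fits without 1 mouse and in 10 of 11 alternatives, the exception being limma after background subtraction (0.385). H2-Ab1 was called in 9 of those fits and in 5 of 11 alternatives (0.00863 to 0.222).

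The vehicles gave no class II difference that passed the test. Vehicle-treated minus untreated mice ran from -0.52 to 0.12 on the log2 scale, with 1 of 9 genes and 75 of 655 genes under an unadjusted p of 0.05 and none called by edgeR. The 2 vehicles differed from each other by -0.13 to 0.29, with none of 9 and 18 of 655 genes under 0.05. Within runs the untreated mouse was not on 1 side of the vehicle mice: for H2-DMb2 the 4 vehicle mice averaged 1.41 above it in the day 1 run, and 0.12 and 0.21 below it in the others, on the log2(normalised count + 1) scale.

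B cells are the main class II-expressing cells of mouse marrow, and their markers were read beside these results. Over 3 days of venetoclax, 10 of 11 B cell markers had a value below 0, against 43.7% of all genes, with a median of -0.29. Of these 1 fell, against 2.9% of all genes called lower, the inhibitory receptor gene Cd22 (-0.80, standard error 0.23, adjusted p = 0.0476), called in 4 of 12 alternatives and 6 of 15 fits without 1 mouse. Ms4a1, which encodes CD20, was -0.27 (adjusted p = 0.844), and the B cell receptor chains Cd79a and Cd79b 0.28 (0.846) and -0.12 (0.946). Cd79a was above background in 25 of 33 lanes, with a median raw count of 10. Only 2 of the 11 B cell markers were above background in every lane. Of 6 T cell markers, Cd3d and Cd8a fell (-0.94, adjusted p = 0.0153, and -1.90, adjusted p = 0.0139), each in 11 of 15 fits without 1 mouse. None of 5 dendritic cell markers, 8 monocyte and macrophage markers, 8 neutrophil markers, 3 pre-B cell markers and 3 plasma cell markers was called.

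By day of venetoclax, 8 of the 11 B cell markers were below 0 on day 1, 5 on day 3 and 7 on day 7. Their medians were -0.51, 0.10 and -0.18, and 51.8%, 44.9% and 50.4% of all genes were below 0. The summed B cell markers ran from 316 to 344 normalised counts after venetoclax on day 1 against 399 to 507 after vehicle. On day 3 they ran from 364 to 558 against 451 to 617, and on day 7 from 486 to 848 against 588 to 638. After ruxolitinib they ran from 602 to 662 against 475 to 529 on day 1. On day 3 they ran from 269 to 336 against 476 to 576, and on day 7 from 254 to 364 against 568 to 580. On each of days 3 and 7 of ruxolitinib 9 of the 11 markers were below 0 (medians -0.36 and -0.73), against 48.2% and 48.1% of all genes. Summed T cell markers ran from 33.01 to 88.7 against 58.3 to 61.3 on day 1 of venetoclax, from 32.2 to 49.4 against 64.8 to 92.2 on day 3 and from 36.2 to 61.6 against 68.8 to 115.2 on day 7. The dendritic cell markers summed to 44.4 to 56.7 against 47.0 to 85.2 on day 1 of venetoclax, 48.2 to 57.5 against 59.9 to 61.1 on day 3 and 51.2 to 83.4 against 66.4 to 75.8 on day 7, so they were apart, and lower, on day 3. After ruxolitinib they summed to 76.6 to 90.5 against 63.7 to 69.6 on day 1, apart and higher as the class II genes were, and overlapped with vehicle on days 3 and 7. Itgax and Flt3, both on the dendritic cell list, were above background in 16 and 24 of 33 lanes. The part of these cell types in the class II values was not tested.

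On day 1 of ruxolitinib most B cell markers had values above 0 and the pre-B cell markers had values below 0. Of the B cell markers, 10 of 11 were above 0 (40.9% of all genes were below 0), with a median log2 fold change of 0.62 against 0.13 over all genes, alongside the higher class II values. Tnfrsf13c, the gene of a receptor for the B cell survival factor BAFF, rose by 1.34 (standard error 0.38, adjusted p = 0.0473), with 5 of 12 alternatives and 1 of 5 fits without 1 mouse calling it (0.0458 to 0.736 in those 5 fits). In the direct comparison of the drugs on day 1, Tnfrsf13c was lower after venetoclax by a difference of -3.30 (standard error 0.72, adjusted p = 0.0102). It was called in 9 of 11 alternatives and 7 of 10 fits without 1 mouse. Its value ran from -3.98 to -2.51 over the alternatives and from -3.56 to -2.41 without 1 mouse. In the same comparison 10 of the 11 B cell markers had differences below 0, against 55.7% of all genes. On each of days 3 and 7, 4 of the 11 did, against 42.1% and 54.5% of all genes. The ruxolitinib change against vehicle was called higher on day 1 than on day 7 for Tnfrsf13c (2.80, adjusted p = 0.00192) and Ms4a1 (2.01, adjusted p = 0.0148), and limma called neither. Without 1 mouse, Tnfrsf13c was called in 9 of 10 fits and Ms4a1 in 5 of 10. Of the other lists, 5 of 6 T cell markers and 4 of 5 dendritic cell markers had values above 0 on day 1 of ruxolitinib, none of them called.

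All 3 tested pre-B cell markers fell over the 3 days of ruxolitinib, with a median of -0.86, against 1.07% of all genes called lower. Rag1, which encodes a recombinase subunit of antigen receptor rearrangement, was -1.11 (adjusted p = 0.00401), the surrogate light chain gene Igll1 -0.86 (0.00808) and the interleukin 7 receptor gene Il7r -0.77 (0.0105). Rag1 and Igll1 were called in all 12 alternatives and all 15 fits without 1 mouse. Il7r was lost with limma without (0.0667) or with background subtraction (0.0990) and without ruxolitinib vehicle day 3 replicate 1 (0.0732) or day 7 replicate 1 (0.0638). The exact permutation test within days called no gene after ruxolitinib, its smallest adjusted p being 0.187, and 72 of 655 genes had an unadjusted p under 0.05. The summed pre-B cell markers ran from 148 to 184 normalised counts against 276 to 341 after vehicle on day 1, from 59.5 to 176 against 279 to 350 on day 3, and from 207 to 259 against 229 to 242 on day 7. They were below vehicle on day 1, when all 9 class II genes were above it, and the groups overlapped on day 7. On single days Igll1 was called on day 3 of ruxolitinib (-1.93, adjusted p = 0.00111) and on day 7 of venetoclax (-1.54, adjusted p = 0.0142), the latter in 2 of 5 fits without 1 mouse. How far these cells contributed to the class II values after ruxolitinib was not tested.

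The rest of the pathway was taken from 3 lists. Over 3 days of venetoclax 2.9% of all genes were called lower, so finding none in lists this short says little about their genes. Of 9 other tested genes of class II loading, recognition and costimulation, none was called over these days. Their median was -0.31, against 0.04 over all genes. The protease genes that cut the invariant chain, Ctss and Ctsl, were 0.07 and -0.34, Cd4, the T cell co-receptor that binds class II, was -0.93 (adjusted p = 0.0556), and Lag3, another class II receptor, was -0.23. Of 16 tested regulators of Ciita and class II transcription none was called and the median was 0.02; the CREB gene Creb1 was 0.27, the coactivators Crebbp and Ep300 were both 0.05, and Irf1, which acts downstream of interferon gamma, was 0.00. Of 12 tested class I presentation genes none was called and the median was 0.02; the class I heavy chains H2-K1 and H2-D1 were 0.04 and 0.19 and the peptide transporter genes Tap1 and Tap2 were 0.00 and 0.19.

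After ruxolitinib, 1 of the 16 regulators fell over the 3 days, against 1.07% of all genes called lower. It was the B cell factor gene Pax5 (-0.83, adjusted p = 0.0264). Pax5 is also on the B cell marker list and was called in 7 of 12 alternatives and 4 of 15 fits without 1 mouse. None of the 12 class I genes was called, against 1.22% of all genes. Of these 12 genes, 11 had a value below 0, against 43.8% of all genes, with a median of -0.21. On day 1, when all 9 class II genes had values above 0 after ruxolitinib, 9 of the 12 class I genes had values below 0, against 40.9% of all genes. Their median was -0.44 against 0.13, and none was called, against 18 of 655 genes. Tap1 was -0.62 (adjusted p = 0.118) and H2-K1 -0.28 (0.665).

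Across the 13 group means the class II genes followed each other unevenly. The median Pearson r of a gene with the other 8 was 0.84 for H2-Ab1, 0.82 for Cd74, 0.81 for H2-DMb2, 0.50 for Ciita, 0.41 for H2-DMa and 0.28 for H2-Ob. Mice of a group shared a run and a treatment, so these are descriptions. Within groups, over 33 mice, Cd74 and H2-Aa had r = 0.92 around their group means, and the median r of Ciita with the others was -0.21.

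Outside the class II genes, the 5 genes closest to the mean of the 8 genes other than Ciita over the 13 group means, of 346 candidates, were Ltb (r = 0.91), which encodes lymphotoxin beta, Axl (0.89), a receptor tyrosine kinase gene, Icosl (0.86), the ligand of ICOS, Thbs1 (0.84), which encodes thrombospondin, and the T cell gene Cd3d (0.79). For Ciita they were Btla (0.92), an inhibitory receptor of lymphocytes, the B cell toll-like receptor homologue Cd180 (0.83), the complement regulator gene Cd55 (0.80), the NF-kappaB subunit gene Rela (0.80) and the platelet integrin gene Itga2b (0.77). Cd3d, Btla, Cd55 and Rela were also among the 19 genes that fell over 3 days of venetoclax.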

How the data were processed

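Total BM RNA of 33 mice was hybridised to nCounter probes; the authors deposited raw counts per probe and lane, with no scaling, and used nCounter Advanced Analysis themselves. The genes and gene lists were chosen with earlier results of these data known. Background per lane was the mean plus 2 SD of 8 negative probes. Each lane was scaled by 11 of its 20 housekeeping probes (their geometric mean), those that no lane read at background. A gene entered the test, as 655 did, if 2 or more lanes read it above background. The edgeR quasi-likelihood test (edgeR 4.0.16, R 4.3.3) was fitted to 13 group means with the study's drug against vehicle contrasts, and p-values were adjusted over 655 genes by Benjamini-Hochberg at 0.05. The common dispersion gave a coefficient of variation of 20.2% between mice. The rule was to name all genes of the set and, of each list, the called and the first 4 tested genes; the lists of cell types other than B cells are given by their counts and called genes. Alternatives were TMM and total count scaling, all housekeeping probes, DESeq2 1.42.0, limma 3.58.1 with and without background subtraction, other filters, fewer groups, pooled vehicles, a replicate block, exclusion of shallow lanes and of each mouse. No label says whether replicate numbers link mice. Correlations of same-numbered mice, as deviations from their group means, ran from -0.35 to 0.30. They cannot settle this, since the 2 mice of a vehicle group deviate by opposite amounts. The run of the day 3 mice carries a header naming day 2; groups follow the labels. Counting error is largest for Ciita. The labels do not say whether mice shared cages or litters. 1 B cell marker, and the comparison per mouse that used it, is not reported here.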

Additional observations from a re-analysis of the deposited data

Results flagged for a closer look

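The day 1 difference between the drugs, venetoclax minus ruxolitinib log2 fold change, passed the test for 4 class II genes: -2.89 for H2-DMb2, -2.48 for H2-Aa, -2.14 for Cd74 and -1.33 for H2-Ab1. Over the 3 days it passed for H2-DMb2 (-1.51) and H2-Ab1 (-0.83). The study had singled out all of these genes on the same mice, so the calls are not independent evidence. In Ciita, H2-Eb1 and H2-DMb1 also, all venetoclax mice were below and all ruxolitinib mice above their vehicle mice on day 1, but the difference missed the threshold in edgeR: -1.71 for Ciita (adjusted p = 0.122), -1.45 for H2-Eb1 (0.0695) and -0.97 for H2-DMb1 (0.366). With limma after background subtraction the value was -3.02 for Ciita and -2.17 for H2-DMb1. After venetoclax on day 1, 1 of the 3 lanes read Ciita above background and 2 of the 3 read H2-DMb1. For H2-DMb2 the day 1 value ran from -4.08 to -2.77 over the alternatives, and limma after background subtraction did not call it (adjusted p = 0.287).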

How the results depend on the processing

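Of the 9 class II genes, the 6 called over 3 days of venetoclax were 4 to 7 (of 8 to 28 genes called in all) under all alternatives except the exact permutation test, which called 0, its smallest adjusted p being 0.125. On day 1 of venetoclax, where the main analysis called 0 of the 9 and 1 of all 655 genes, the count was 2 with all housekeeping probes (of 3 genes called), DESeq2 (of 4) or a mean count filter (of 6), 4 with limma (of 11), 5 with only the groups compared (of 19), 1 with the replicate block (of 2) and 6 with both vehicles pooled (of 26). On day 1 of ruxolitinib, 1 in the main analysis (of 18 genes called) became 0 with limma with or without background subtraction (of 3 and 10), 5 with only the groups compared (of 77) and 4 with both vehicles pooled (of 31). The 4 genes whose drugs differed on day 1 (of 11) became 2 with limma (of 2) and 0 after background subtraction (of 0). The 2 genes whose drugs differed over days (of 4) became 1 with TMM or total count scaling, DESeq2, limma or no filter (of 3 each), 0 after background subtraction (of 0), 5 with only the groups compared (of 9) and 4 with the replicate block (of 10). For ruxolitinib day 1 minus day 7, 0 (of 10) became 2 with only the groups compared (of 21). The replicate block moved no other count of class II genes by over 1.5 times. Over all genes, the 19 called over 3 days of venetoclax became 11 with it. Whether replicate numbers link mice is not known. The fits with only the groups compared estimate the spread from fewer mice; the cause of the other changes was not tested.

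Leaving out 1 mouse at a time gave 0 to 1 genes on day 3 of venetoclax (1 without venetoclax day 3 replicate 2), 0 to 1 on day 1 of ruxolitinib, 1 to 3 for the day 1 difference between drugs and 1 to 4 for the difference over days. H2-DMa had no settled direction after venetoclax. On day 1 it was -0.36 without shallow lanes and -0.36 to 0.51 without 1 mouse. On day 3 it was -0.0026 with total count scaling, -0.14 with both vehicles pooled and -0.011 to 0.21 without 1 mouse. On day 7 it was -0.13 to 0.25, and over days -0.081 without shallow lanes and -0.081 to 0.21 without 1 mouse. Ciita on day 7 was -1.05 to 0.034 without 1 mouse. Depth limits Ciita most: it was above background in 23 of 33 lanes.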
